A study of Saccharomyces cerevisiae with 4 samples.

Results

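The tricarboxylic acid cycle genes described here are CIT1, ACO1, IDH1, IDH2, KGD1, KGD2, LSC1, LSC2, FUM1 and MDH1 of Saccharomyces cerevisiae. They were found by gene symbol in the annotation of the array's probe sets. All 10 were measured, among 5449 genes in all, each by 1 probe set, and none of these 10 probe sets is marked as cross-hybridising. The series compared 2 cultures with the dis3-E729K allele and 2 wild-type cultures, each hybridised to its own one-colour array. The product of DIS3 is the catalytic subunit of the RNA exosome, a complex that trims and degrades RNA from the 3' end. Per the labels, the background of every culture was BY4741, and mutant and control alike had URA3 inserted next to DIS3. All cultures grew at 30 °C, called permissive in the labels, in synthetic medium that selects for the DIS3 allele, and were collected in mid-log phase. The labels call the 2 samples of a group biological replicates and do not say how many clones of each genotype were grown.

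The cycle oxidises the acetyl group of acetyl-CoA in the mitochondrial matrix, passes electrons to the respiratory chain and supplies 2-oxoglutarate and oxaloacetate for amino acid synthesis. In budding yeast, glucose represses many of its genes. When glucose runs low, the Hap2/3/4/5 complex, with Hap4 as its regulated activating subunit, raises their transcription. The Rtg1 and Rtg3 activators, with Rtg2, can maintain CIT1, ACO1, IDH1 and IDH2, the genes of the first steps up to 2-oxoglutarate, when respiration is impaired.

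The values are log2 intensities, 1 per gene and array, already normalised together so that the arrays share nearly the same distribution. The upper quartile of all genes lay between 11.30 and 11.32 on the 4 arrays. Probes differ in brightness, so a level is compared here only with the same gene's level on another array. A change is the dis3-E729K mean minus the wild-type mean on the log2 scale, with limma's moderated SE (n = 2 per group). A gene is said to have risen or fallen where its limma p, adjusted by Benjamini-Hochberg over the 5449 genes, was under 0.05. These p-values measure the spread between 2 cultures per group. In each group these 2 cultures also differed in their mating type genes, as described below, so the spread is not that of like replicates. Bulk RNA cannot tell apart fewer cells of a kind and less RNA per cell.

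The arrays of replicate number 2 did not have the mating type of BY4741, an a strain. The 7 marker genes of a cells read at least 7.62 on the 2 replicate 1 arrays and 4.49 to 8.27 on the 2 replicate 2 arrays, and each was higher on both replicate 1 arrays than on both replicate 2 arrays. The 5 marker genes of alpha cells read 3.51 to 9.37 on the replicate 1 arrays and 10.56 to 13.91 on the replicate 2 arrays. MET17 is deleted in BY4741; its signal was 9.55 in wild type replicate 2, against 3.22 to 3.47 for the other 3 cultures. LEU2, also deleted in BY4741, read 4.26 to 4.58, just above the background level of 4.06. URA3 (11.37 ± 0.01 and 11.05 ± 0.24; wild type and mutant means, SD, n = 2), HIS3 (11.43 ± 0.20 and 10.71 ± 0.31) and DIS3 itself (11.73 ± 0.12 and 11.30 ± 0.26) did not pass the test, and the level of DIS3 does not check a missense allele. Differences of the members are therefore also given within replicate numbers, where both arrays share a mating type, as the replicate 1 pair and the replicate 2 pair. Within the replicate 2 pair MET17 still differed, at 9.55 in wild type and 3.47 in the mutant. That pair is thus not matched for this marker, and a block on the replicate number does not take the difference out. Calls on other genes that ended with the replicate number as a block are named as such. All 17 ribosomal RNA control probe sets of S. cerevisiae were higher on both mutant arrays, by a median of 0.42, and the 5' signal relative to the 3' signal was higher there for 6 of 8 yeast control genes. Their part in the results was not tested.

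In dis3-E729K, CIT1, which encodes the mitochondrial citrate synthase that opens the cycle, rose 2.04-fold. It was the only member of the 10 that passed the test, and 0 fell. IDH1 and MDH1 each lay 0.85 above wild type on the log2 scale and did not pass, at adjusted p values of 0.0670 and 0.0684. IDH2 and KGD2 lay above wild type by 0.55 and 0.53, KGD1 and LSC1 by 0.26 and 0.22, and ACO1, LSC2 and FUM1 lay within 0.12 of it on the log2 scale. The single rise among 10 stands beside 7.71% of all genes tested that rose and 8.15% that fell, so the count of calls is near the background. Before adjustment, 5 of the 10 were higher and 0 lower at p under 0.05, beside 18.1% higher and 22.6% lower over all genes. The median change of the 10 was 0.39, with -0.07 over all genes tested. Since the genes were chosen with earlier results of these data known, the list was given no test.

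Both mutant arrays lay above both wild-type arrays for 7 of the 10, where 32.3% of all genes did so, and below for 0 of the 10, where 41.8% did. The other 3, ACO1, LSC2 and FUM1, overlapped. Among the 7, KGD1 and LSC1 separated only narrowly. Their dis3-E729K replicate 1 read 11.09 and 11.92, and the nearest wild-type culture 11.08 and 11.90. The difference was not even between replicate numbers: the median over the 10 was 0.21 in the replicate 1 pair and 0.55 in the replicate 2 pair, and the second was larger for 9 of 10 genes. Over all genes, 42.9% had the larger difference in the replicate 2 pair.

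**Figure D1:**
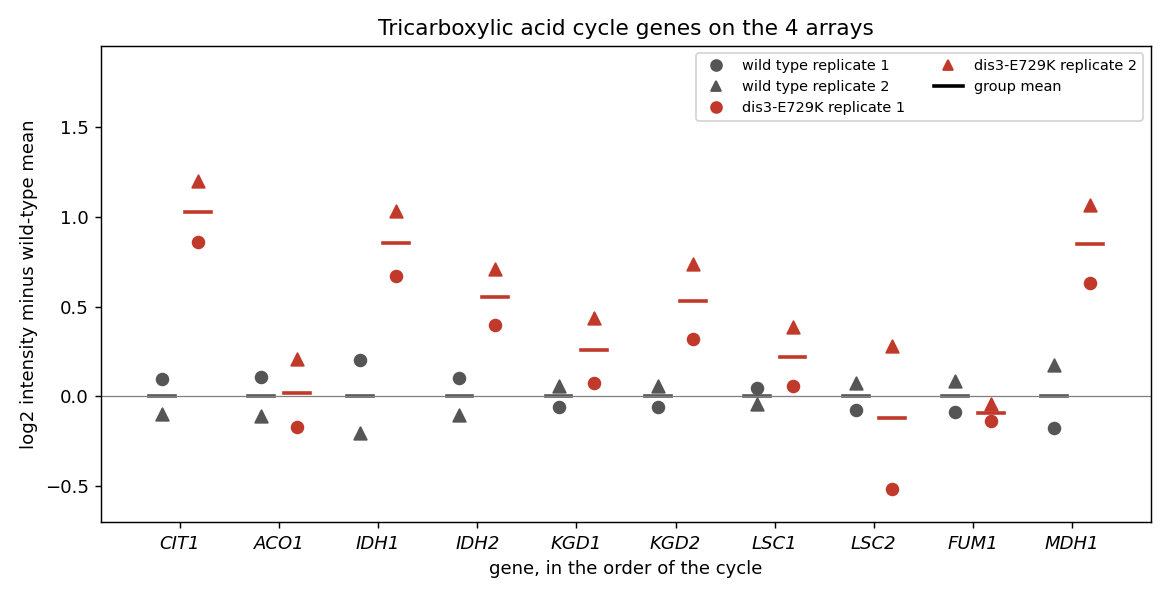
Log2 intensity of each of the 10 cycle genes on each array, minus that gene's wild-type mean; circles are replicate 1, triangles replicate 2, grey wild type, red dis3-E729K, and bars group means (n = 2). Both red points lie above both grey points for 7 genes, only narrowly for KGD1 and LSC1, and the red triangle lies above the red circle for all 10.

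Entry into the cycle is by citrate synthase and aconitase. CIT1 (YNR001C) read 12.33 and 12.13 in the wild-type cultures and 13.09 and 13.43 in the mutant cultures, replicate 1 first in each group. Both mutant cultures were above both wild-type cultures. Its mean went from 12.23 ± 0.14 to 13.26 ± 0.24 (SD, n = 2 each), a change of 1.03 ± 0.18 (SE) with an adjusted p of 0.0413 in limma's test. The difference was 0.76 in the replicate 1 pair and 1.30 in the replicate 2 pair. With the replicate number as a block, which takes out the mating type, the adjusted p was 0.0654 in limma, and CIT1 no longer passed. The block left the change of CIT1 at 1.03 and used up a residual degree of freedom. Whether this or the mating type ended a call was not tested. In the fit with the block 0 of the 10 genes passed, beside 3.65% of all genes higher and 2.64% lower. CIT1 also missed the threshold with any 1 of the 4 arrays left out. Such a fit leaves 1 culture in a group, so genes miss the threshold more easily there. The change of CIT1 ran from 0.86 to 1.20 in these fits. Of all genes, 8.0% had a larger change.

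ACO1 (YLR304C), the aconitase that turns citrate into isocitrate and also helps maintain mitochondrial DNA, read 13.35 and 13.13 in wild type and 13.07 and 13.45 in the mutant. The mutant cultures were the lowest and the highest of the 4, so the groups overlapped. Its change was 0.02 ± 0.19 (SE; adjusted p = 0.943 in limma), and its sign differed between the pairs, at -0.28 and 0.32. The change of CIT1 thus exceeded that of the next enzyme by 1.01, by 1.04 and 0.98 within the pairs. In an exact permutation test of this difference over the 4 arrays the two-sided p was 0.333, the smallest that 6 splits allow. With so few splits this test cannot show a difference between genes, here or for the subunits below.

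Isocitrate dehydrogenase, an octamer of Idh1 and Idh2, makes 2-oxoglutarate and NADH. IDH1 (YNL037C) read 11.20 and 10.79 in wild type and 11.67 and 12.03 in the mutant. IDH2 (YOR136W) read 12.27 and 12.06 in wild type and 12.56 and 12.87 in the mutant. Neither gene's groups overlapped, yet neither passed: the change was 0.85 ± 0.22 for IDH1 and 0.55 ± 0.17 for IDH2 (SE; adjusted p = 0.0670 and 0.0936 in limma). In both genes wild type replicate 2 was the lowest array and dis3-E729K replicate 2 the highest. The differences were 0.47 and 1.23 within the pairs for IDH1, and 0.29 and 0.82 for IDH2. IDH1 exceeded IDH2 by 0.30 in its change, with the same sign in both pairs, 0.18 and 0.42. In the exact permutation test the two-sided p was 0.333, again the smallest possible (n = 2 per group).

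The 2-oxoglutarate dehydrogenase complex turns 2-oxoglutarate into succinyl-CoA. KGD1 (YIL125W), its dehydrogenase component, read 10.96 and 11.08 in wild type and 11.09 and 11.46 in the mutant. The lower mutant culture and the higher wild-type culture nearly met. KGD2 (YDR148C), the dihydrolipoyl transsuccinylase core, read 11.26 and 11.38 in wild type and 11.64 and 12.06 in the mutant, with a gap between the groups wider than that between the wild-type cultures. The changes of 0.26 ± 0.17 for KGD1 and 0.53 ± 0.19 for KGD2 did not pass (SE; adjusted p = 0.321 and 0.117 in limma). Within the pairs the differences were 0.14 and 0.38 for KGD1 and 0.38 and 0.68 for KGD2. KGD2 exceeded KGD1 by 0.27, by 0.24 and 0.30 within the pairs, again at the smallest possible two-sided p of 0.333 in the exact permutation test.

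Succinyl-CoA ligase couples the release of succinate to the synthesis of a nucleoside triphosphate. LSC1 (YOR142W), its alpha subunit, read 11.90 and 11.81 in wild type and 11.92 and 12.24 in the mutant, so dis3-E729K replicate 1 lay at the wild-type level. LSC2 (YGR244C), the beta subunit, read 10.75 and 10.90 in wild type and 10.31 and 11.10 in the mutant. The 2 mutant cultures enclosed the wild-type cultures for LSC2, with the largest SD of any group among the 10 genes, 0.56. The changes were 0.22 ± 0.16 and -0.12 ± 0.30 (SE; adjusted p = 0.356 and 0.787 in limma). For LSC1 the differences within the pairs were 0.02 and 0.43, and for LSC2 the sign turned, from -0.44 to 0.20. The change of LSC1 exceeded that of LSC2 by 0.34, with a two-sided p of 0.667 in the exact permutation test, where 0.333 is the smallest possible.

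Fumarase and malate dehydrogenase close the cycle. FUM1 (YPL262W), whose product works in the mitochondria and the cytosol, read 12.12 and 12.29 in wild type and 12.07 and 12.16 in the mutant. The groups overlapped, and the change was -0.09 ± 0.13 (SE; adjusted p = 0.636 in limma). FUM1 was the only member whose difference lay below zero in both pairs, at -0.05 and -0.13. MDH1 (YKL085W), the mitochondrial malate dehydrogenase that regenerates oxaloacetate, read 11.75 and 12.10 in wild type and 12.56 and 12.99 in the mutant. Its mutant cultures were both above its wild-type cultures, and the change of 0.85 ± 0.22 did not pass (adjusted p = 0.0684 in limma). MDH1 had close values in the pairs, 0.81 and 0.89, and the largest difference of the 10 genes in the replicate 1 pair. With the replicate block its adjusted p was 0.0657, beside 0.0654 for CIT1.

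The 2 mutant cultures differed in the same direction for every member, and the 2 wild-type cultures did not. In dis3-E729K, replicate 2 exceeded replicate 1 for all 10 genes, by a median of 0.36, where 45.2% of all genes were. Wild type replicate 2 was above wild type replicate 1 for 5 of the 10, with a median of 0.01, where 59.2% of all genes were. The SDs of the mutant cultures ran from 0.07 for FUM1 to 0.56 for LSC2, and those of the wild-type cultures from 0.06 for LSC1 to 0.29 for IDH1. With each gene centred on its own mean, the root mean square distance over the 4 arrays was smallest between KGD1 and LSC1, at 0.08, and largest between CIT1 and LSC2, at 0.61. The median over the 45 pairs of members was 0.27. IDH1 was the member nearest to CIT1, at 0.12.

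**Figure D2:**
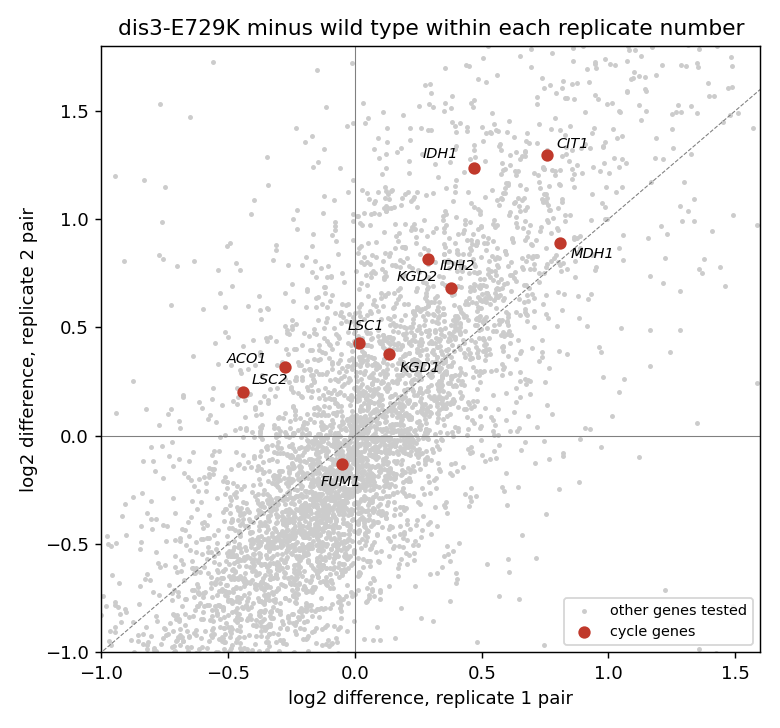
Log2 difference, dis3-E729K minus wild type, in the replicate 1 pair (x axis) and the replicate 2 pair (y axis) for the 10 cycle genes (red) and the other genes tested (grey; genes beyond the axes are not shown); the dashed line marks equal differences. CIT1, IDH1 and MDH1 are highest, ACO1 and LSC2 change sign between the pairs, and 9 of the 10 lie above the line.

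The remaining subunit genes of the cycle were read beside the members. Succinate dehydrogenase, which is also complex II of the respiratory chain, did not pass in any subunit gene with all 4 arrays. SDH1, the flavoprotein, read 10.84 and 10.86 in wild type and 11.70 and 12.41 in the mutant, a change of 1.21 ± 0.27 (SE; adjusted p = 0.0538 in limma). SDH2, the iron-sulfur subunit, differed by 0.82 ± 0.23, and the membrane anchors SDH3 and SDH4 by 0.35 ± 0.18 and 0.62 ± 0.21. Within the pairs SDH1 differed by 0.86 and 1.55 and SDH2 by 0.56 and 1.09. Without dis3-E729K replicate 1 these 2 genes passed, and with an intensity trend in the fit SDH1 did. For all 4 of these genes both mutant cultures lay above both wild-type cultures. LPD1, the dihydrolipoamide dehydrogenase shared by several 2-oxoacid dehydrogenase complexes, differed by -0.04 ± 0.13, with -0.04 in each pair. KGD4, a small subunit of the 2-oxoglutarate dehydrogenase complex, differed by 0.47 ± 0.19. Of the 16 cycle genes together 1 rose, where 7.71% of all genes did, and 13 had a change above zero, where 44.7% did. The mutant was without overlap above wild type for 12 of the 16, only narrowly for KGD1 and LSC1, beside 32.3% of all genes.

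**Figure D3:**
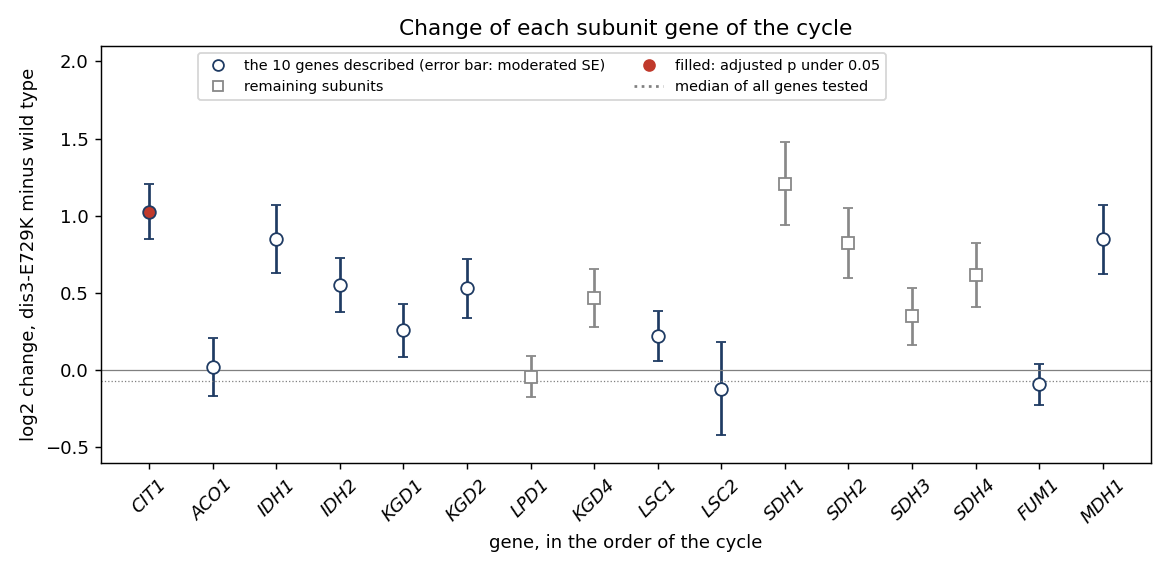
Log2 change (dis3-E729K minus wild type, points) with the moderated SE (bars) for the 16 subunit genes in the order of the cycle; circles are the 10 genes described, squares the remaining subunits, and a filled point passed at an adjusted p under 0.05. CIT1 at 1.03 is the only filled point, SDH1 at 1.21 lies higher with a wider bar, and ACO1, LPD1, LSC2 and FUM1 lie near zero.

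Factors that assemble succinate dehydrogenase, with its paralogues, gave 0 calls among 8 measured genes, with 4 higher and 0 lower in limma at p under 0.05 before adjustment, beside 18.1% and 22.6% of all genes. SDH8 differed by 1.31 ± 0.37, SDH6 by 1.13 ± 0.38, SDH5, needed to attach the flavin, by 0.62 ± 0.20, and SDH7 by 0.50 ± 0.13 (SE; adjusted p from 0.0706 to 0.105). SDH8 passed without wild type replicate 1. Of the 4 genes for attaching lipoic acid, the cofactor of the 2-oxoglutarate and pyruvate dehydrogenase complexes, 0 passed in limma and 1, LIP2, was higher at an unadjusted p under 0.05. LIP2 differed by 0.43 ± 0.13, AIM22 by 0.24 ± 0.12, LIP5 by -0.21 ± 0.14 and GCV3 by -0.15 ± 0.18.

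Like the members, the related gene lists were chosen with earlier results of these data known, so their counts are a description. The calls on the lists that follow are read beside 7.71% of all genes that rose and 8.15% that fell. With the replicate block the shares of all genes were 3.65% and 2.64%. None of these calls was kept without dis3-E729K replicate 2, where 0 of all genes passed in limma, with 694 higher and 868 lower at p under 0.05 before adjustment. The same held without wild type replicate 2, where 9 of all genes rose and 2 fell. CIT3, MPC3, SFC1, HAP4, ICL1, JEN1 and ADY2 passed with either replicate 1 array left out, of wild type or of dis3-E729K. For HAP4 the change was 1.88 to 2.00 with any 1 array left out. Among isoenzymes that catalyse reactions of the cycle elsewhere or in parallel, 3 rose and 0 fell of 9 measured genes. CIT2, the peroxisomal citrate synthase of the glyoxylate cycle and the classic target of the Rtg pathway, read 13.08 and 12.89 in wild type and 13.71 and 13.97 in the mutant. It rose by 0.85 ± 0.16 (SE; adjusted p = 0.0436 in limma), and 0.0796 with the replicate block. CIT3, a further mitochondrial citrate synthase that also accepts propionyl-CoA, read 6.48 and 6.03 in wild type and 8.28 and 9.20 in the mutant, a rise of 2.48 ± 0.37 (1.799 and 3.169 within the pairs). MDH2, the cytosolic malate dehydrogenase of gluconeogenesis, read 9.88 and 9.76 in wild type and 11.19 and 11.94 in the mutant, a rise of 1.74 ± 0.29 (1.30 and 2.18 within the pairs). Under the replicate block CIT3 and MDH2 still passed, at adjusted p values of 0.0452 and 0.0477. All 3 citrate synthase genes thus rose, by 1.03, 0.85 and 2.48, and only CIT3 of them passed with the replicate block. None of the 3 overlapped between genotypes, where 32.3% of all genes were without overlap above wild type.

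Pyruvate enters the cycle through the mitochondrial pyruvate carrier and the pyruvate dehydrogenase complex, or through pyruvate carboxylase. Of 14 genes for these steps 2 rose and 0 fell, and 1 rose with the replicate block. MPC3, the carrier subunit used in respiratory growth, rose by 3.95 ± 0.39 (SE; adjusted p = 0.0335 in limma), from 8.56 and 8.99 to 12.23 and 13.21. PKP2, a kinase that inhibits pyruvate dehydrogenase, rose by 1.28 ± 0.22, and did not pass with the replicate block (adjusted p = 0.0588). Among 7 mitochondrial carriers of cycle intermediates 1 rose and 1 fell. SFC1, which exchanges succinate for fumarate, rose by 4.15 ± 0.59 (3.59 and 4.72 within the pairs). YHM2, which exchanges citrate for 2-oxoglutarate, read 12.29 and 12.17 in wild type and 11.57 and 11.35 in the mutant. It fell, with a change of -0.77 ± 0.15 (adjusted p = 0.0443), -0.72 and -0.82 within the pairs, and did not pass with the replicate block (adjusted p = 0.0765).

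Of 10 genes that join 2-oxoglutarate and succinate to glutamate, 4 rose and 0 fell, and 2 rose with the replicate block. PUT1, proline oxidase, rose by 3.24 ± 0.51, and GDH2, the NAD-dependent glutamate dehydrogenase that returns glutamate to 2-oxoglutarate, by 1.68 ± 0.23 (SE). GAD1, glutamate decarboxylase, rose by 2.13 ± 0.39 and UGA1, the transaminase of 4-aminobutyrate, by 1.40 ± 0.27; both belong to the shunt that bypasses the 2-oxoglutarate dehydrogenase complex and succinyl-CoA ligase. GDH2 and PUT1 passed with the replicate block, and GAD1 and UGA1 did not (adjusted p = 0.0562 and 0.0638).

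Among 12 regulators of these genes 5 rose and 0 fell, and 1 rose with the replicate block. The largest change of the 12, 2.20, was that of a regulator that did not pass. HAP4 read 10.27 and 10.15 in wild type and 12.10 and 12.20 in the mutant, with the narrowest spread of the 5 between the mutant cultures. It rose by 1.94 ± 0.13 (SE; adjusted p = 0.0335 in limma), by 1.83 and 2.05 within the pairs, and it alone of the 5 passed with the replicate block (adjusted p = 0.0307). The DNA-binding subunits HAP2 and HAP5 rose by 1.36 ± 0.21 and 0.93 ± 0.16, while HAP3, named after its value was seen, differed by 0.67 ± 0.31 and did not pass (adjusted p = 0.187). SNF1, the kinase needed to lift glucose repression, rose by 0.72 ± 0.13, and MIG1, a repressor in glucose, by 0.93 ± 0.19. RTG1, RTG2 and RTG3, named after their values were seen, differed by 0.20 ± 0.13, 0.31 ± 0.12 and 0.39 ± 0.30 and did not pass.

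**Figure D4:**
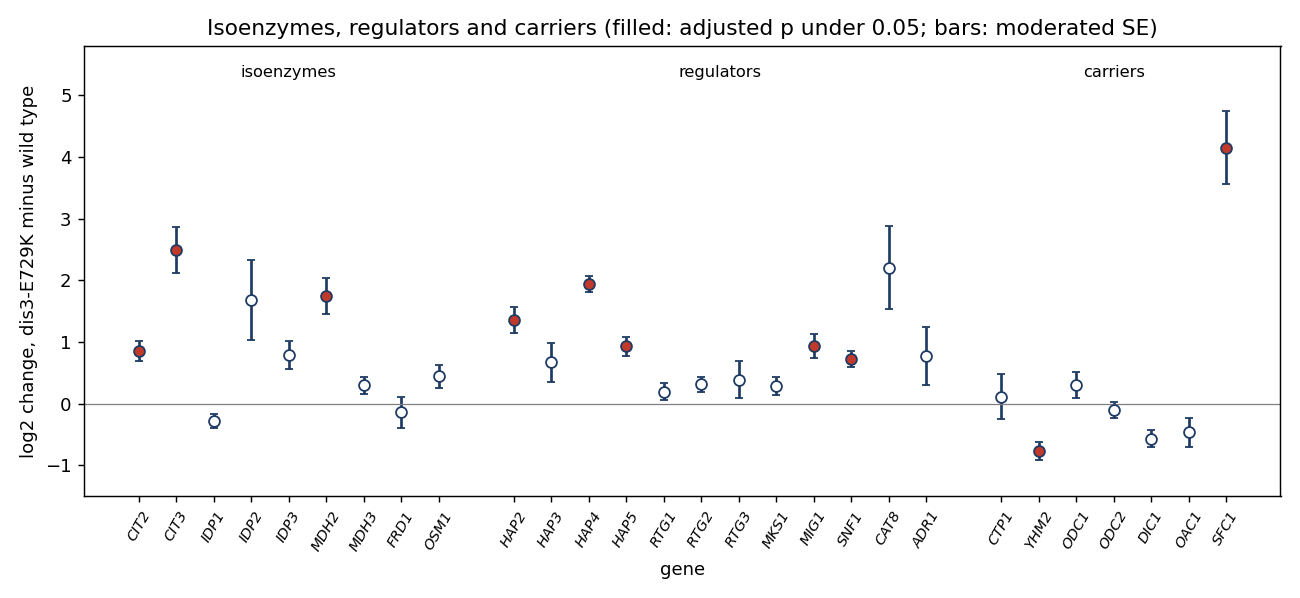
Log2 change (dis3-E729K minus wild type, points) with the moderated SE (bars) for measured isoenzymes, regulators and carriers; filled points passed at an adjusted p under 0.05. HAP4 at 1.94 has a short bar, SFC1 at 4.15 is the highest point, and YHM2 at -0.77 is the only filled point below zero.

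Of 8 genes that mark cells released from glucose repression, 4 rose and 0 fell in limma's test. The 4 were ADY2 (5.13 ± 0.72, SE), JEN1 (3.93 ± 0.45), ICL1 (3.35 ± 0.31) and MLS1 (2.39 ± 0.34), and all 4 passed with the replicate block. The other 4 did not pass. All 8 were without overlap above wild type, where 32.3% of all genes were, with values from 5.82 to 9.15 on the wild-type arrays and 6.82 to 12.52 on the mutant arrays. As with the cycle genes, replicate 2 of dis3-E729K exceeded replicate 1 for all 8, by a median of 1.08, where 45.2% of all genes did. Of 6 markers of stationary phase cells 0 rose and 1 fell, SNZ1 (-0.80 ± 0.15), which did not pass with the replicate block (adjusted p = 0.0800). Changes of the 6 ran up to 2.60, 3 lay above zero, and 2 were without overlap above wild type. The median difference of these 6 was -1.68 in the replicate 1 pair and 2.81 in the replicate 2 pair. All 6 were lower in wild type replicate 2 than in wild type replicate 1, where 59.2% of all genes were higher. In dis3-E729K, replicate 2 exceeded replicate 1 for all 6 of them as well, by a median of 2.74. The labels give no optical density for single cultures, and the part of these marker genes' states in the cycle genes' values was not tested.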

How the data were processed

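Total RNA of 4 yeast cultures was amplified, labelled with biotin and hybridised to one-colour arrays, per the labels' protocols. The deposited values are log2 intensities, made by RMA (background subtraction, quantile normalization, summary of each probe set), with Affymetrix Expression Console and the Transcriptome Analysis Console software, per the submitters' processing notes, with no versions or build given in the sources used here. The table held 10928 probe sets. Through the platform annotation and the Entrez identifiers of RefSeq assembly R64, 5498 were tied to 1 S. cerevisiae gene. Of several probe sets for a gene (47 genes), the one with the highest mean was kept, which left 5449 genes. Groups came from sample titles. Genotypes were compared with limma 3.58.1 (R 4.3.3, lmFit and eBayes), with no filter on dim genes. The fit to all 4 arrays without the block had 2 residual and 2.18 prior degrees of freedom, and the block leaves fewer residual ones. The procedure was also run on simulated data without a mating type or replicate effect. That run does not check it for arrays that differ in mating type. The background level, 4.06, is the 95th percentile of the probe sets of another species. Differences between genes' changes were tested by exact permutation. Alternatives were a replicate block, other variance moderation, normalization, probe set choices and threshold, and each array left out. The 4 arrays limit the precision.

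Members and lists were chosen with earlier results of these data known. The rule named all members, the remaining cycle subunits, strain markers, each listed gene that passed, up to 4 genes with the largest moderated statistic in a list with none, and the 3 genes outside the lists nearest to CIT1. Listed genes without a probe set here were not analysed. Python 3.11.15, pandas 2.3.3 and matplotlib 3.10.9 made tables and plots.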

Additional observations from a re-analysis of the deposited data

How the results depend on the processing

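The number of cycle genes that rose was 1 under the intensity trend, robust moderation, median centring, renewed quantile normalization, the dim-gene filter, averaged probe sets and without cross-hybridising probe sets. It was 0 with the replicate number as a block, with 199 of all genes higher and 144 lower, and 4 (CIT1, IDH1, MDH1 and IDH2) at an adjusted p under 0.1, with 883 higher and 1069 lower. With 1 array left out it was 0 in each case (0 to 0), 0 to 316 of all genes rose and 0 to 351 fell, and the median of the cycle genes was 0.20 to 0.57, the lowest without dis3-E729K replicate 2. Without that array 0 genes passed in limma (694 higher and 868 lower at p under 0.05 before adjustment), and without wild type replicate 2, 9 rose and 2 fell; the 25 calls on named genes were lost under both. The count of cycle genes that fell was 0 in every setting run. With 1 array left out the change ran from -0.17 to 0.21 for ACO1, -0.52 to 0.28 for LSC2, -0.109 to 0.0266 for LPD1, -0.353 to 0.0442 for GCV3, -0.0138 to 0.785 for RTG3 and -6.13 to 0.20 for MET17, and thus changed sign. SDH1 passed with the trend, SDH1 and SDH2 without dis3-E729K replicate 1, and SDH8 and MET17 without wild type replicate 1. The replicate block ended 14 of these 25 calls, those given in the text and those of SNZ1, HAP2, HAP5, MIG1, SNF1, DIP5, NAS2 and ALG13 among them. DIP5, NAS2 and ALG13 were picked for values like those of CIT1, so their calls follow its call. The block also uses up a residual degree of freedom, and its part in the lost calls was not tested. The labels do not say that a number pairs cultures; the block was used because mating type genes follow it.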

Other observations

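Outside the gene lists, the 3 genes whose centred values over the 4 arrays lay nearest to those of CIT1 were DIP5, a permease for acidic amino acids, NAS2, a chaperone of proteasome assembly, and ALG13, which acts in protein glycosylation. Their root mean square distances from CIT1 were 0.01, 0.02 and 0.02 on the log2 scale. DIP5 rose by 1.04 ± 0.18, NAS2 by 0.99 ± 0.17 and ALG13 by 0.99 ± 0.17 (SE, n = 2 per group; adjusted p from 0.0410 to 0.0418 in limma). None of the 3 passed with the replicate block, at adjusted p values from 0.0658 to 0.0663. The likeness rests on 4 arrays and is a description of them. Since these genes were picked for values like those of CIT1, their changes and test outcomes follow from that choice.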
